A study of Homo sapiens with 6 samples.

Results

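Respiratory complex I genes were taken from the expression table of NCI-H660 cells as every gene whose symbol begins with NDUF, which gave 47 of the 17177 genes listed. They divide into 39 genes named as subunits and 8 assembly factors named NDUFAF. NCI-H660 is an established human neuroendocrine prostate cancer line, described in the labels as wild type. Of the 6 libraries, 3 came from cells given pyrvinium pamoate (PP), an anthelmintic cyanine dye, and 3 from cells given phosphate-buffered saline (PBS), all collected on day 3. By the labels, the groups shared the line and the day and differed in the agent alone. The PP concentration was not found for these libraries, and the labels do not say whether the libraries of a group came from separate cultures. The study calls the samples independent in its legends but describes duplicates in its methods, so what the replicates are is unsettled and the p-values may measure technical spread only.

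Complex I, NADH:ubiquinone oxidoreductase, is the entry point of electrons from NADH into the mitochondrial respiratory chain. Its peripheral arm reaches into the matrix, binds NADH and passes electrons along iron-sulfur clusters to ubiquinone. Its membrane arm pumps protons and is built around subunits encoded in mitochondrial DNA, with nuclear-encoded accessory subunits around them. Assembly factors bring these parts together and are absent from the finished enzyme. The NDUF symbols hold all 37 nuclear-encoded subunits on the list used here, together with NDUFA4, a protein once counted in complex I and now placed with cytochrome c oxidase, and its paralog NDUFA4L2. The expression table held no values under the symbols of the 7 subunits encoded in mitochondrial DNA, so these could not be analysed.

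The comparison of PP with PBS asked how the complex I genes stood after treatment. Of the 39 subunit genes, 24 were lower with PP, 4 were higher and 11 did not pass the test, with a median log2 fold change of -0.18. The test was limma on log2(FPKM + 1), where FPKM is the count of fragments scaled by gene length and by the mapped fragments of the library. A call required an adjusted p under 0.05 over the 11726 genes with a mean of at least 1 FPKM. Of the 8 NDUFAF assembly factors, 1 was lower, 4 were higher and 3 were not called, with a median of 0.18. Across all genes tested, 34.4% were called lower and 38.1% higher and the median was 0.02, so that calls in both directions were common in these libraries. All 47 complex I genes passed the filter on low values. In bulk RNA, fewer cells of a type and less RNA per cell cannot be told apart.

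The promoters shown next belong to the member with the lowest fold change among those with a promoter entry (NDUFB3), the member with the highest (NDUFAF2), one of the lowest that holds a binding-site core (NDUFA1), and a pair that holds the same core but differed in its response (NDUFS6 and NDUFS7). Each line gives the 100 bases before the annotated start, 5′ to 3′, from RefSeq on GRCh38.p14, all on the plus strand. Capitals mark a match to GCGCATGC (the core of the NRF1 site), CCGGAAG (the core of ETS sites, which GABP binds) or CCAAT (the CCAAT box), read on either strand.
NDUFB3, chr2:201071901-201072000: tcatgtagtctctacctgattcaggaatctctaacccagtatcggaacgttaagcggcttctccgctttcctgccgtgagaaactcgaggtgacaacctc
NDUFAF2, chr5:60945105-60945204: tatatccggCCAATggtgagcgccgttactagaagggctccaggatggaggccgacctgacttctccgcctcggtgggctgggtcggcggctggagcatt
NDUFA1, chrX:119871732-119871831: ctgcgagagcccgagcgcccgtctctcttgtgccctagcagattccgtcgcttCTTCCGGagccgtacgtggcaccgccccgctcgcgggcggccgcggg
NDUFS6, chr5:1801307-1801406: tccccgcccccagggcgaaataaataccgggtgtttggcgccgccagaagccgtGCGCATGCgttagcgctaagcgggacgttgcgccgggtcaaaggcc
NDUFS7, chr19:1383807-1383906: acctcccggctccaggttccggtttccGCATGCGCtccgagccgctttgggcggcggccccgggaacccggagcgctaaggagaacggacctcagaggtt

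The table of promoters matched 39 of the 47 members with 51 windows, each running from 250 bases before the start to 50 bases after it. The 8 members with no entry included NDUFA4, NDUFA4L2, NDUFAF6, NDUFB5, NDUFB9, NDUFC2 and NDUFS5. The NRF1 core was found in 8 of the 51 windows (15.7%), against 24.3% of the windows of complexes II to V, 4.87% of those of all genes tested and 3.05% of all 35116 windows. It lay in the promoters of 8 genes, namely NDUFB4, NDUFS6 and NDUFA8, which fell, NDUFAF4, which rose, and NDUFA5, NDUFA6, NDUFS7 and NDUFAF5, which were not called. The core of the YY1 site (AAGATGGCG) was also found in 8 windows (15.7%), against 10.8% of the windows of complexes II to V and 3.60% of those of genes tested. All of its matches read forward and began between 9 and 25 bases after the start, in NDUFS4, NDUFB8, NDUFA9, NDUFAF8, NDUFS7, NDUFA7 and NDUFA6. No motif match is shown here to be a bound site.

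The other motifs stood close to their share over all genes, or were rare. The ETS core was in 15.7% of the members' windows, 17.5% of those of genes tested and 43.2% of those of complexes II to V. The CCAAT box was in 31.4% and 35.1%, and the core of the ATF4 response element (TGATGNAA) was in 3.92% and 1.88%. Between members that were called lower (29 windows) and those that were not (22 windows), the NRF1 core was in 10.3% and 22.7%, the YY1 core in 6.90% and 27.3% and the CCAAT box in 20.7% and 45.5%. These shares rest on between 2 and 10 windows each, several from the same gene, and overlapping cores of the NRF1 site on both strands were counted once a window.

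The 7 core subunits, which carry the electrons, moved little and in both directions. NDUFS8, which holds a pair of iron-sulfur clusters, was at 99.4, 101 and 99.1 FPKM in the PBS libraries and 80.0, 94.3 and 79.6 FPKM in the PP libraries. NDUFV2, an iron-sulfur protein beside the NADH site, was at 56.0, 60.3 and 60.1 FPKM with PBS and 50.2, 51.6 and 56.9 FPKM with PP. Both genes were called lower, by log2 fold changes of -0.24 (SE 0.059, adjusted p = 0.00368) and -0.15 (SE 0.051, adjusted p = 0.0215). The libraries of NDUFV2 overlapped between the groups, and its call was lost in 5 of 16 alternative settings, among them leaving out PP replicate 1 (-0.12), PP replicate 2 (-0.13), PBS replicate 2 (-0.13) or PBS replicate 3 (-0.14).

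NDUFS1, the largest core subunit and the carrier of several iron-sulfur clusters, was the 1 core gene that rose. Its values were 13.0, 13.1 and 13.3 FPKM with PBS and 15.2, 14.9 and 15.4 FPKM with PP, a log2 fold change of 0.19 (SE 0.041, adjusted p = 0.00175), with every PP library above every PBS library. NDUFV1, which binds NADH and the flavin, was at 65.6, 72.8 and 77.4 FPKM with PBS and 73.1, 68.6 and 63.6 FPKM with PP. NDUFS3, a structural core subunit near the ubiquinone site, was at 38.4, 40.1 and 42.0 FPKM with PBS and 43.0, 40.2 and 40.6 FPKM with PP. NDUFS7, which holds the last cluster before ubiquinone, was at 29.1, 27.9 and 29.2 FPKM with PBS and 31.6, 30.2 and 26.5 FPKM with PP. The groups overlapped for these 3 genes and their log2 fold changes of -0.07, 0.04 and 0.03 did not pass the test. The core subunits as a list had 3 genes lower and 1 higher of 7, with a median of -0.07.

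The 9 accessory subunits of the peripheral arm were as divided, with 3 lower, 2 higher, 4 not called and a median log2 fold change of 0.03. NDUFV3, a small subunit beside the NADH-binding proteins, rose most of the 39 subunit genes. It was at 6.67, 7.04 and 6.63 FPKM with PBS and 10.4, 9.57 and 11.2 FPKM with PP, a log2 fold change of 0.55 (SE 0.060, adjusted p = 1.67e-05). NDUFS4, which anchors the NADH-binding module and is a known Leigh syndrome gene, was at 27.9, 33.3 and 33.1 FPKM with PBS and 37.7, 37.9 and 35.7 FPKM with PP (log2 fold change 0.24, SE 0.063, adjusted p = 0.00664). For both genes the PP libraries lay above all PBS libraries.

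In the same arm, NDUFA2, a small protein with a thioredoxin-like fold, fell by 0.65 on the log2 scale (adjusted p = 3.13e-06), from a mean of 72.5 ± 3.90 FPKM (SD, n = 3) to 45.9 ± 3.37 FPKM. NDUFS6, a zinc-binding subunit, fell from 92.5 ± 0.908 to 71.1 ± 3.72 FPKM, a log2 fold change of -0.38 (adjusted p = 1.44e-05). NDUFA7 was called lower at -0.10 (adjusted p = 0.0187), but that call was lost in 5 of 16 alternative settings, among them leaving out PBS replicate 3 (-0.08) or PP replicate 2 (-0.10). NDUFA5, NDUFA6, NDUFA9 and NDUFA12 were not called, with values between -0.09 and 0.05. Of these, NDUFA9, which has the fold of a short-chain dehydrogenase, had the lowest FPKM of all subunits with PBS, at 5.36 ± 0.135. Its implied length was 8430 bases. By counts it was not the lowest, with 1351 to 1377 in the PBS libraries against 478 to 552 for NDUFC2.

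The accessory subunits of the membrane arm were where most of the lower calls lay. Of 20 such genes, 16 were lower and 1 was higher. Of the 16 genes of the peripheral arm, core subunits included, 6 were lower and 3 higher. In that arm 42.9% of the core list and 33.3% of the accessory list were lower, against 34.4% of all genes tested. Higher calls made up 38.1% of all genes tested. The difference between the arms was not tested. In the proximal part, next to the peripheral arm, 7 of 9 genes (77.8%) were called lower, with a median of -0.48. All 9 had a log2 fold change below 0, as did 5633 of all 11726 genes tested. In the distal part 9 of 11 (81.8%) were lower and 1 was higher, with a median of -0.49.

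NDUFS5, a cysteine-rich subunit on the intermembrane side of the proximal arm, had the lowest log2 fold change of the 47 genes. It was at 322, 325 and 341 FPKM with PBS and 173, 190 and 184 FPKM with PP, so that the mean fell by 44.7% (log2 fold change -0.85, SE 0.041, adjusted p = 3.64e-08). NDUFA1, a small membrane-spanning subunit encoded on the X chromosome, was at 135, 152 and 146 FPKM with PBS and 98.4, 80.7 and 81.7 FPKM with PP (log2 fold change -0.73, SE 0.072, adjusted p = 7.97e-06). Neither gene had overlapping groups. The other genes that fell in the proximal arm were NDUFA13, also known as GRIM-19, at -0.65, NDUFA3 at -0.50, NDUFA11 at -0.48, NDUFC1 at -0.30 and NDUFA8 at -0.18. NDUFA10 and NDUFC2 had values of -0.07 and -0.03 and were not called.

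In the distal arm, NDUFB3, a small subunit with a single membrane helix, had libraries that lay close together within each group. It was at 24.8, 24.6 and 25.3 FPKM with PBS and 14.1, 14.2 and 14.5 FPKM with PP (log2 fold change -0.76, SE 0.039, adjusted p = 5.63e-08). NDUFB2, also a small membrane-arm subunit, was at 53.3, 64.1 and 63.6 FPKM with PBS and 40.3, 36.9 and 29.1 FPKM with PP. Its log2 fold change of -0.76 was like that of NDUFB3 but its SE of 0.107 was larger (adjusted p = 0.000104), and its groups did not overlap. NDUFB7 fell by 0.59 on the log2 scale, NDUFB4 and NDUFB8 by 0.58 each, NDUFB11 by 0.49, NDUFB1 by 0.44, NDUFB6 by 0.38 and NDUFB10 by 0.16.

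NDUFB9, a subunit of the LYR family that sits on the matrix face of the distal arm, stood apart from its neighbours. It was at 512, 526 and 519 FPKM with PBS and 574, 567 and 555 FPKM with PP, a log2 fold change of 0.12 (SE 0.028, adjusted p = 0.00276), with all PP libraries above all PBS libraries. It also had the highest FPKM of the subunits. The FPKM of the 37 complex I subunits summed to between 2825 and 2951 with PBS and between 2293 and 2424 with PP, and NDUFB9 made up 17.6% to 18.1% of that sum with PBS and 23.7% to 24.2% with PP. NDUFB5 was at 18.6, 16.6 and 18.6 FPKM with PBS and 18.3, 18.0 and 20.3 FPKM with PP, which overlapped and was not called at 0.07.

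NDUFAB1, the mitochondrial acyl carrier protein that binds LYR subunits and also serves fatty acid synthesis, fell by 0.15 on the log2 scale (SE 0.051, adjusted p = 0.0231), a call that 6 of 16 alternative settings lost, among them leaving out PP replicate 2 (-0.11), PBS replicate 2 (-0.12) or PP replicate 3 (-0.14). NDUFA4 was at 37.4, 42.9 and 41.9 FPKM with PBS and 26.1, 23.8 and 24.2 FPKM with PP. Its groups did not overlap and its log2 fold change was -0.70 (SE 0.057, adjusted p = 1.84e-06). NDUFA4L2, the paralog known as a hypoxia-responsive gene, was at 10.4, 8.58 and 8.03 FPKM with PBS and 10.2, 8.69 and 8.96 FPKM with PP, and was not called at 0.05 (SE 0.087).

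**Figure D1:**
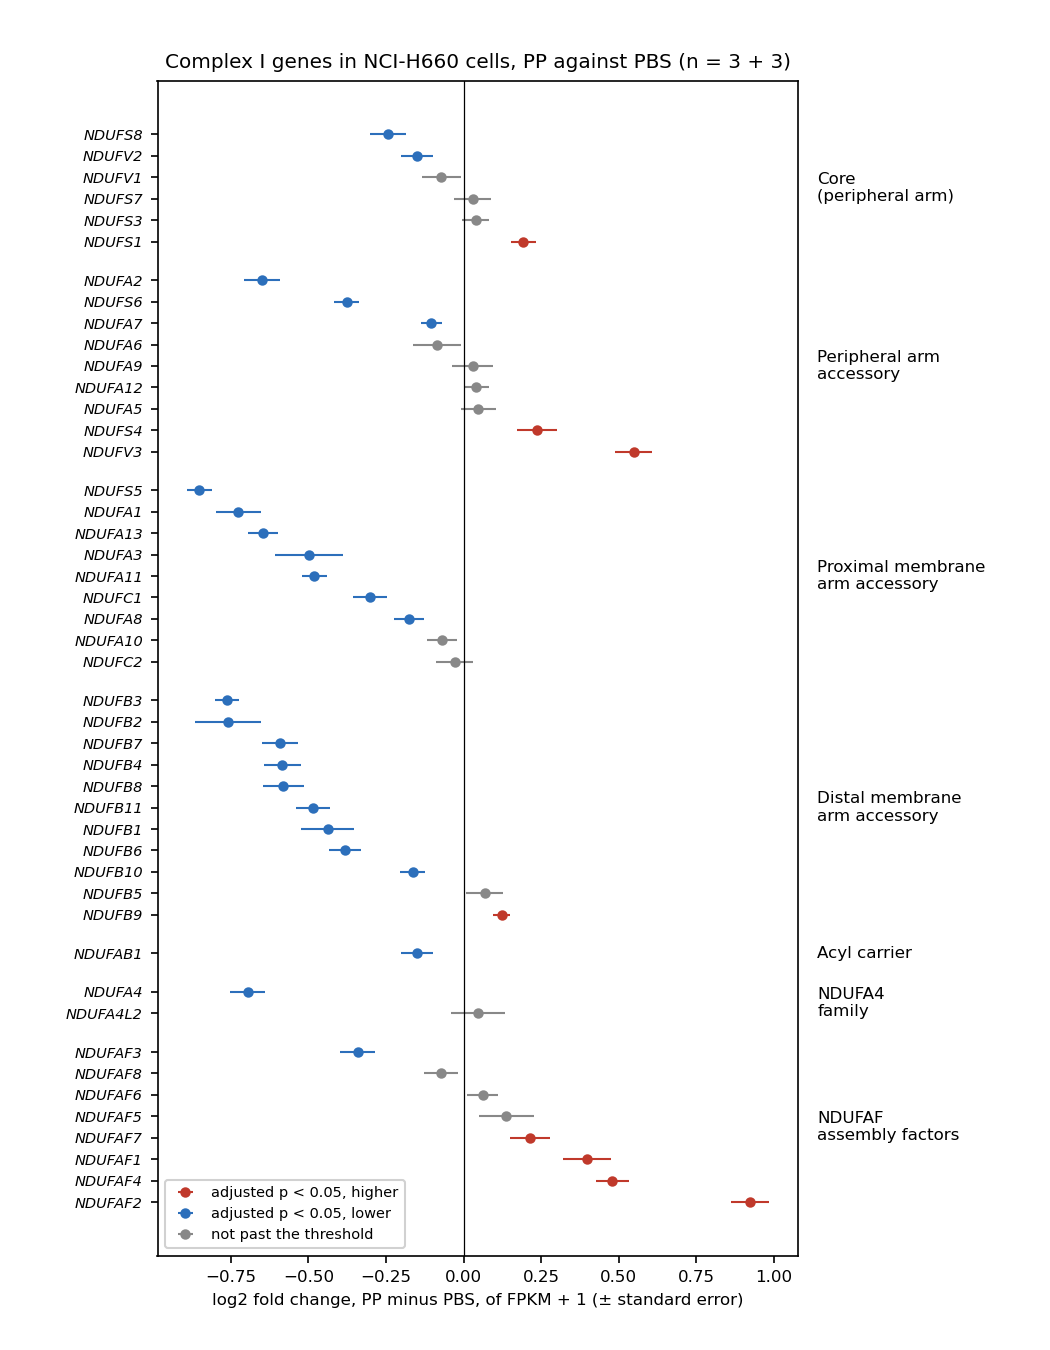
Log2 fold change of FPKM + 1, PP minus PBS, of 46 of the 47 complex I genes (x axis, bars are standard errors, 3 libraries a group), ordered within its place in the complex. Blue points were called lower, red points higher and grey points did not pass an adjusted p under 0.05; in the proximal and distal membrane arm 16 of 20 points are blue.

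Read by library instead of by test, all 3 PP libraries lay below all 3 PBS libraries for 24 of the 39 subunits and above them for 4, where 35.5% of all genes tested were separated downwards and 39.5% upwards. The sets were not the same as the called ones, since NDUFV2 was called with overlapping libraries and NDUFA10 was separated without a call. No complex I gene passed the stricter cutoff of the study's methods, an unadjusted P under 0.001 and a change of more than 1 on the log2 scale in either direction, which 5.18% of all genes tested passed. Of the 47, 22 had an unadjusted limma P under 0.001 and 33 one under 0.05. The share of all genes tested under these unadjusted thresholds was not computed, but low P values were common in the whole table as well. At an adjusted p under 0.05 in limma, 53.2% of the 47 were lower and 17.0% higher, against 34.4% and 38.1% of all genes tested. Not called were 14 of the 47 and 3230 of all 11726 genes tested. With limma-voom on recovered counts, 0 of the 47 also passed the cutoff. Log2 fold changes of the 39 subunits had an SD of 0.33 among genes, against a median SE of 0.057 for 1 gene, so the subunits differed among themselves by more than the error of a single value.

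**Figure D2:**
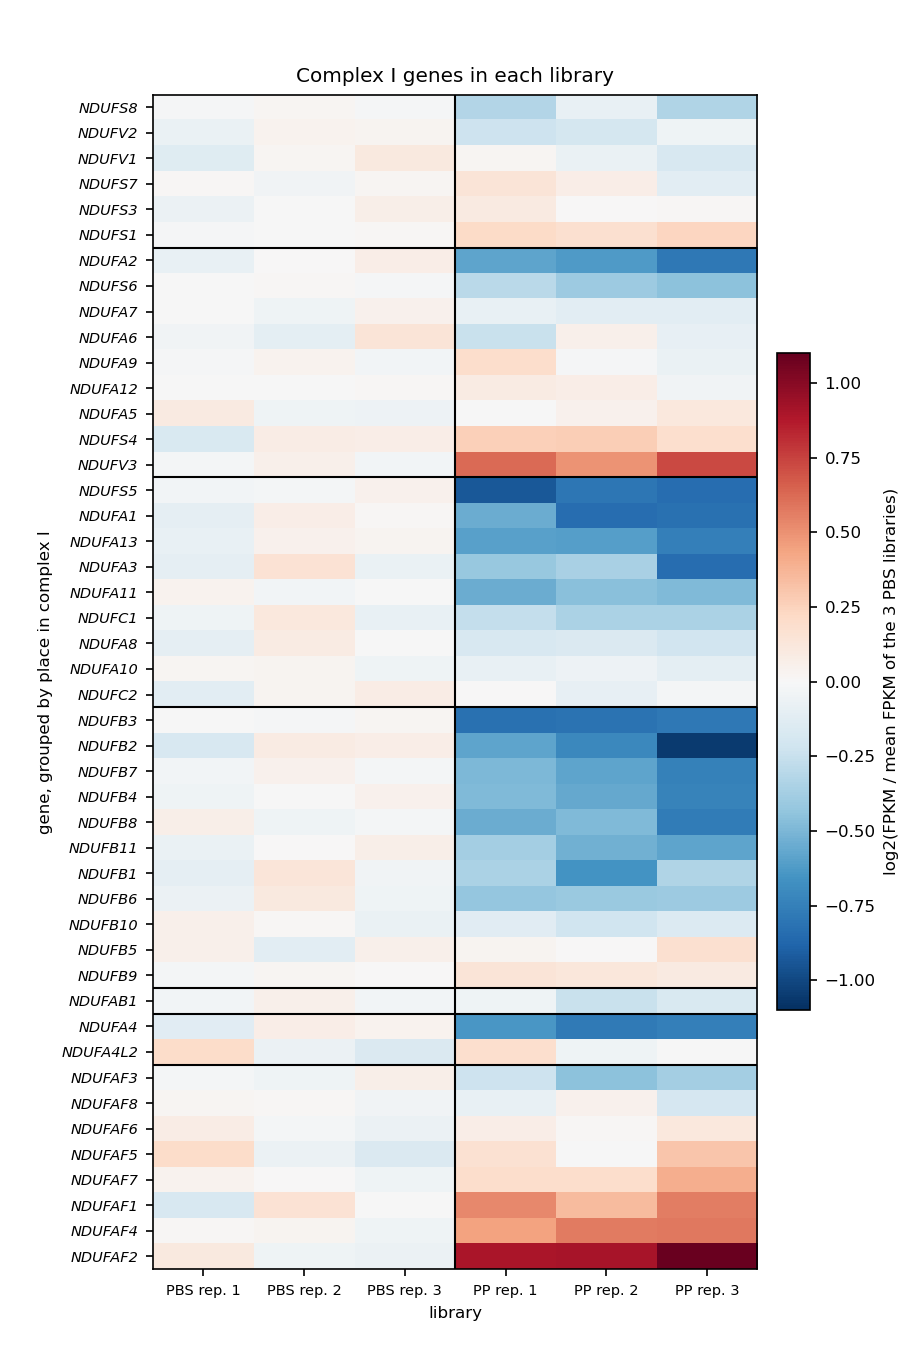
Colour gives the log2 ratio of FPKM to the mean of the 3 PBS libraries for 46 of the 47 genes (y axis, black lines part the places in complex I) in each of the 6 libraries (x axis). The 3 PP columns are blue through most of the membrane arm blocks, while NDUFAF2, NDUFAF4, NDUFAF1 and NDUFV3 are red in all 3.

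Assembly factors were less abundant than subunits, with mean levels between 3.92 and 37.7 FPKM with PBS (median 11.5) where subunits ranged from 5.36 to 519 FPKM (median 40.7). NDUFAF2, a paralog of the subunit NDUFA12 that holds its place in assembly intermediates, had the largest rise of all 47 genes. It was at 17.4, 15.7 and 15.4 FPKM with PBS and 30.04, 30.3 and 34.2 FPKM with PP, a rise of the mean by 95.3% (log2 fold change 0.92, SE 0.062, adjusted p = 4.04e-07). NDUFA12 itself was at 80.7 ± 0.5995 FPKM with PBS and 83.1 ± 3.88 FPKM with PP and was not called.

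NDUFAF3 and NDUFAF4 are partner proteins that bind each other while the ubiquinone-binding module is built, and their messages moved in opposite directions. NDUFAF3 was at 37.1, 36.5 and 39.4 FPKM with PBS and 32.1, 27.6 and 29.02 FPKM with PP (log2 fold change -0.34, SE 0.056, adjusted p = 0.000320). NDUFAF4 was at 8.02, 8.12 and 7.71 FPKM with PBS and 10.8, 11.8 and 11.9 FPKM with PP (log2 fold change 0.48, SE 0.052, adjusted p = 1.55e-05). Neither gene had overlapping groups.

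NDUFAF1, a member of the assembly complex that builds the proximal membrane arm, was at 3.48, 4.37 and 3.91 FPKM with PBS and 5.66, 4.98 and 5.78 FPKM with PP (log2 fold change 0.40, SE 0.079, adjusted p = 0.00104). NDUFAF7, a mitochondrial protein methyltransferase, was at 4.11, 4.01 and 3.88 FPKM with PBS and 4.57, 4.58 and 5.28 FPKM with PP (log2 fold change 0.21, SE 0.064, adjusted p = 0.0121). Both rose with no overlap of the groups. NDUFAF5, which hydroxylates NDUFS7, was at 5.63, 4.70 and 4.39 FPKM with PBS and 5.50, 4.90 and 6.07 FPKM with PP. NDUFAF6 was at 15.9, 14.8 and 14.3 FPKM with PBS and 15.7, 15.1 and 16.2 FPKM with PP. NDUFAF8, a partner of NDUFAF5, was at 25.3, 25.1 and 24.3 FPKM with PBS and 23.5, 25.7 and 21.9 FPKM with PP. These 3 genes overlapped between groups and were not called, at log2 fold changes of 0.14, 0.06 and -0.07. NDUFAF5 was called higher when PBS replicate 1 was left out (0.22), and NDUFAF8 was called lower when PP replicate 2 was left out (-0.13) but higher when a trend over length and GC content was removed (0.25, adjusted p = 0.00138).

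Of a further 13 complex I assembly factors with other symbols, 4 were higher (30.8%, against 38.1% of all genes tested), 1 was lower and 8 were not called, with a median of 0.06. TMEM186 had the highest value (0.42, SE 0.065, adjusted p = 0.000202), followed by TIMMDC1 (0.39), FOXRED1 (0.22) and ECSIT (0.15), and COA1 had the lowest (-0.20, SE 0.049, adjusted p = 0.00404). Over the 21 assembly factors together, 8 were higher (38.1%), the same share as among all genes tested, and 2 were lower (9.52%, against 34.4%).

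The subunits of the other respiratory complexes gave the background for the complex I subunits. Of the nuclear-encoded subunits listed for complexes II to V, 41 were present in the expression table and 38 passed the filter. Of these 38, 31 were lower and 1 was higher, with a median log2 fold change of -0.45. In complex IV, cytochrome c oxidase, all 10 subunits tested were lower, from COX6C at -0.96 to COX5A at -0.28. Complex V, the ATP synthase, had 12 of 15 lower, between ATP5MC1 at -0.92 and ATP5MC2 at -0.01, and complex III had 7 of 9 lower, between UQCR10 at -0.85 and UQCRFS1 at 0.08. Complex II, succinate dehydrogenase, was split, with SDHA at -0.86 (adjusted p = 5.31e-08) and SDHC at -0.57 lower and SDHB at 0.17 higher. The 39 complex I subunit genes had a smaller share of lower calls (61.5%) than complexes II to V (81.6%), a difference that was not tested. Without NDUFA4 and NDUFA4L2, which are not in the list of complexes II to V, the complex I share was 62.2% of 37. Among all genes tested it was 34.4%. Among other dehydrogenases that reduce ubiquinone, 2 of 4 tested were lower, with ETFDH lowest at -0.27 and GPD2 highest at -0.0012.

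Genes listed as regulators of respiratory genes, nuclear or mitochondrial, went the other way from most subunits. Of 12 genes, 9 were higher (75%, against 38.1% of all genes tested), 1 was lower (8.33%, against 34.4%) and 2 were not called. Their median log2 fold change was 0.19. PPRC1, a coactivator of the PGC-1 family, had the highest value, at 10.8 ± 0.422 FPKM with PBS and 22.8 ± 0.754 FPKM with PP (1.02, SE 0.047, adjusted p = 2.68e-08). PPARGC1B, of the same family, had the lowest (-0.24, adjusted p = 0.00838). NRF1, the factor whose site core is shown in the promoters of NDUFS6 and NDUFS7, rose from 8.37 ± 0.421 to 16.1 ± 0.526 FPKM (0.87, SE 0.050, adjusted p = 1.47e-07). Of the 8 complex I genes with that core in a promoter window, 3 were lower, 1 was higher and 4 were not called. A link between NRF1 and these genes was not tested.

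Gene length, as implied by counts and FPKM, and expression level moved with the change among the subunits. These implied lengths reached 11879 bases, for NDUFS1, and need not be those of the main transcripts. Across the 39 subunits, the log2 fold change had a Pearson correlation of 0.47 and a Spearman correlation of 0.37 with the log of the length that the counts and FPKM imply, where all points share the same 6 libraries. The Pearson correlation was -0.12 with GC content and -0.46 with the log2 level in the PBS libraries, which also enter the change. Across all 11631 genes with values, the Pearson correlation was 0.064 with length, -0.24 with GC content and -0.16 with level. Across the 38 subunits of complexes II to V it was 0.41 with length, -0.07 with GC content and -0.27 with level. Of the 18 subunits under 1000 bases, 13 were lower (72.2%), against 49.2% of all genes of that length, and of the 21 longer ones 11 were lower (52.4%), against 33.8%. The part of length in the result was not tested directly. When a trend over length and GC content was removed from each library, an alternative chosen after the data were seen, 18 of the 39 subunits were lower and 9 higher with a median of -0.11, the membrane arm lists kept 6 of 9 and 8 of 11 genes lower, the core list had 2 lower and 3 higher, and 32 of 38 subunits of complexes II to V were lower. In that fit NDUFS8, NDUFS6, NDUFA8, NDUFAB1 and NDUFAF7 lost their calls, and NDUFB10 lost its call with a change of sign (0.10, adjusted p = 0.089). NDUFA7 was called higher in that fit (0.16, adjusted p = 0.00165), as were NDUFA12, NDUFA4L2, NDUFS3 and NDUFS7, which were not called before.

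Counts recovered from the FPKM values summed to between 29064253 and 32481171 per library, and each member had at least 163 counts in every library. Of the 47 members, 21 have annotated pseudogenes that could share reads with them, 14 of these among the 25 genes called lower. The share of all genes tested with pseudogenes was not computed. Exons of another coding gene overlap 11 members on the same strand and 17 on the other. How the counting divided such reads is not known. The 45 members with coordinates lie on 22 chromosomes. Of 8 neuroendocrine markers, 7 were tested, 5 were lower and 1 was higher. Their part in the complex I result was not tested. Leukocyte markers summed to at most 1.89 FPKM, fibroblast markers to at most 4.91 and endothelial markers to at most 4.76. PTPRC, PECAM1 and PDGFRB were at or near 0 in every library. The 3 members of these lists that passed the filter were CDH5, which fell from 3.60 to 2.52 FPKM, COL1A1, which rose from 3.30 to 4.16 FPKM, and CD14, which was at 1.44 and 1.47 FPKM and was not called.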

How the data were processed

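Strand-specific mRNA libraries of NCI-H660 cells were sequenced. The deposited table holds 1 FPKM value per gene and library, made by the authors. The submitters' notes name fastp, HISAT2, HTSeq and GRCh38, while the study's methods name Bowtie, hg19, RSEM and Cufflinks, so the pipeline behind the table remains unsure. Columns were assigned by the sample titles. Log2(FPKM + 1) of genes with a mean of at least 1 FPKM was compared in limma 3.58.1 (R 4.3.3, trended variance) with Benjamini-Hochberg adjustment over all genes tested. The methods' cutoff (P under 0.001, log2 fold change above 1 or below -1) was a second call. Whole counts were recovered from the FPKM steps (tolerance 0.01 counts) for all 17177 genes, of which 268 were at 0 in every library. Replicate numbers were not used as pairs in the main fit, since the labels do not say what a shared number means. Values by library are given for core subunits (some genes are not reported here), NDUFA4, NDUFA4L2, NDUFAF genes and the 4 lowest and 4 highest other subunits. From each other list the highest and lowest gene is named, and genes in counts of 5 or fewer and NRF1 were named after their values were seen. Members and lists were chosen with earlier results of these data known.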

Additional observations from a re-analysis of the deposited data

How the results depend on the processing

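Alternatives were other pseudocounts (0.1 and 0.5), no filter or a mean of at least 5 FPKM, 2 other scalings, limma-voom on recovered counts, an untrended variance, a replicate block, leaving out each library, and, added after the data were seen, removal of a GC content and length trend. With the replicate block, 24 subunits were lower and 4 higher, 1 assembly factor was lower and 4 higher, and no call on a complex I gene changed. The deviations of same-numbered libraries from their group means correlated at -0.211, -0.014 and -0.127. With so few libraries, these values cannot exclude that a shared number stands for a shared culture or batch. Leaving out 1 library gave 21 to 24 subunits lower and 4 higher, 1 to 2 NDUFAF factors lower (2 without PP replicate 2) and 4 to 5 higher, 1 to 2 of the other assembly factors lower and 3 to 5 higher, and 31 to 33 subunits of complexes II to V lower and 1 higher. With a mean of at least 5 FPKM, 2 NDUFAF factors were higher, since NDUFAF1 and NDUFAF7 were then left out. Of the other assembly factors, 2 were lower with that filter, median-ratio scaling or limma-voom, and 3 with upper quartile scaling or the trend removed; the cause was not tested. Of 33 calls on complex I genes, 3 (NDUFA7, NDUFAB1 and NDUFV2) were lost in at least 1 of these settings and 0 changed sign, the trend removal aside. Uncalled genes that changed sign with upper quartile scaling were NDUFA12 (-0.0028), NDUFA9 (-0.0082), NDUFS3 (-0.0050) and NDUFS7 (-0.013). Leaving out 1 library turned NDUFA4L2 (range -0.023 to 0.14), NDUFA9 (-0.037 to 0.076), NDUFC2 (-0.079 to 0.0076) and NDUFS7 (-0.022 to 0.10). Removing the trend gave 9 subunits higher and turned NDUFA5 (-0.11), NDUFA7 (0.16), NDUFA9 (-0.038), NDUFAF5 (-0.038), NDUFAF6 (-0.059), NDUFAF8 (0.25), NDUFB10 (0.10), NDUFB5 (-0.10) and NDUFV1 (0.071). FPKM values are relative, so a change in total RNA per cell would not be seen.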
